A study of Mus musculus with 16 samples.

Results

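Interferon-induced effector genes carry out the antiviral work that follows interferon signaling, and 10 of them were followed here in single nuclei of the mouse medial prefrontal cortex (PFC). They were chosen by name from the deposited count table, with earlier results of these data known. They are Ifit1, Ifit2, Ifit3, Ifi27, Ifitm3, Bst2, Isg15, Usp18, Oasl2 and Rnf213, which are 10 of the 19999 genes of the table. Each was described in all nuclei of a mouse together and in cell classes set by marker genes, with the mice shown one by one. The 16 male mice, aged 22 weeks, formed 4 groups of 4. WT controls and alcohol-exposed WT mice carried the strain label B6;129, and 3xTg-AD controls and alcohol-exposed 3xTg-AD mice came from the 3xTg-AD line, which expresses human APP and human tau, each with a disease mutation, in neurons from Thy1 cassettes and carries a mutant mouse presenilin gene. Exposure was chronic intermittent ethanol vapor preceded by injections of ethanol and pyrazole, an inhibitor of alcohol dehydrogenase, and control mice also received pyrazole and were kept in air chambers. The 3xTg-AD line is kept on a B6;129 background too, but the genotypes carry separate strain labels, so the transgenes and the background of the line cannot be told apart. The human transgenes are not rows of the table, so the genotype labels were not checked against them.

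Type I interferons bind the receptor of Ifnar1 and Ifnar2, which activates the kinases Jak1 and Tyk2 and, through them, transcription factors. These bind the interferon-stimulated response element, a DNA motif built around repeated GAAA, in the promoters of many genes. The products of these genes hold back viral RNA, viral entry and viral release. In the brain, microglia, astrocytes, endothelial cells and neurons can all respond, and an interferon program has been described in microglia around amyloid plaques.

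The genes lie on 8 chromosomes of GRCm38 (mm10), with positions from the GENCODE annotation. Isg15 lies at chr4:156199424-156200818 on the reverse strand, Oasl2 at chr5:114896936-114912234 and Usp18 at chr6:121245906-121270917. Ifitm3 lies at chr7:141009586-141010770 and Bst2 at chr8:71534255-71537456, both on the reverse strand, and Rnf213 at chr11:119393100-119487418. Ifi27 lies at chr12:103434211-103440239. Ifit2 (chr19:34550694-34576419), Ifit3 (chr19:34583531-34588731) and Ifit1 (chr19:34640871-34650009) stand in this order on the forward strand, and reads can be shared between Ifit3 and Ifit3b, a near-identical copy, so Ifit3 levels are uncertain in that respect.

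A core of the response element, the letters GAAA, any 2 bases and GAAA again, was searched on both strands in the 250 bases before each RefSeq start (GRCm38.p6), where matches may overlap each other. It stood in the windows of 4 of the 8 members that have one, and in a window of 3.46% of the 27025 genes with windows. The 4 stretches are shown because they hold the letters of the element that interferon signaling acts through, as a description and not as proven binding sites. Each is written 5′ to 3′ on the gene's own strand with the matches in capitals and 20 bases on either side. The positions are chr4:156200855-156200916 (reverse strand) for Isg15, chr8:71537567-71537622 (reverse strand) for Bst2, chr19:34583353-34583436 (forward strand) for Ifit3 and chr19:34640765-34640833 (forward strand) for Ifit1.
Isg15: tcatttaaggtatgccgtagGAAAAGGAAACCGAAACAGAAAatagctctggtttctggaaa
Bst2: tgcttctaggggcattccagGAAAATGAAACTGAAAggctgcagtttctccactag
Ifit3: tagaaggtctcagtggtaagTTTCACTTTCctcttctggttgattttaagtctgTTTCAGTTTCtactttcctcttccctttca
Ifit1: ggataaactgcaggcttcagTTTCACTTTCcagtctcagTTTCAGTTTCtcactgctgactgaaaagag
Isg15 held 3 overlapping matches and Bst2 held 2 overlapping matches, all reading GAAA along the gene. Ifit3 and Ifit1 each held 2 separate matches on the other strand, where the letters appear as TTTC, any 2 bases and TTTC. At least 2 matches were present in 0.18% of all windows. The windows of Ifit2, Ifitm3, Oasl2 and Rnf213 did not contain these letters, and no window was at hand for Ifi27 and Usp18.

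Levels are given as CPM, the UMIs of a gene per 1000000 UMIs of the mouse or of the class in that mouse. The libraries held between 4955 and 9096 nuclei and between 9622031 and 17544364 unique molecular identifiers (UMIs, each standing for 1 captured RNA molecule) per mouse. The 10 genes together gave 20332 UMIs, or 93.8 CPM, and 13.4% of the nuclei held at least 1 of them. In the authors' table a gene seen in fewer than 5 nuclei of a mouse stands at 0 in that mouse, so a listed 0 covers up to 4 nuclei. The library of 3xTg-AD mouse 34 (exposed to alcohol) stood apart for these genes, and results that rest on it are given with and without it. WT control mice 26 and 27 and 3xTg-AD control mouse 12 had the highest levels of Gm42418, a ribosomal RNA-like transcript, which ranged from 2059 to 29047 CPM over all mice. Glutamatergic markers were found in the largest class of nuclei, and between 40.6% and 54.4% of the nuclei of a mouse could not be given a class.

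Ifitm3 and Bst2, which act at membranes, rose in alcohol-exposed 3xTg-AD mice relative to WT controls with and without mouse 34. In these sums over all nuclei, fewer cells of a type and less RNA per cell cannot be told apart. Markers of some other cells moved with these groups. The summed 10 microglia markers stood at 170 to 252 CPM in alcohol-exposed 3xTg-AD mice and at 100 to 156 CPM in WT controls. Those of perivascular macrophages stood at 3.37 to 7.24 and 1.04 to 2.43 CPM, and those of astrocytes at 860 to 1181 and 712 to 878 CPM, where the last pair overlapped. Endothelial markers, at 39.8 to 49.2 and 36.8 to 77.8 CPM, also overlapped, as did those of mural and leptomeningeal cells. Their part in the results was not tested. Ifitm3 blocks the fusion of viruses with endosomes. Its level was 5.0, 4.47, 2.57 and 2.79 CPM in the 4 WT controls, 3.75, 5.67, 4.45 and 6.21 CPM in alcohol-exposed WT mice, 7.34, 5.54, 8.06 and 6.67 CPM in 3xTg-AD controls, and 9.95, 13.9, 17.3 and 25.4 CPM in alcohol-exposed 3xTg-AD mice. Every alcohol-exposed 3xTg-AD mouse lay above the other 12 mice, and every 3xTg-AD control lay above every WT control. The log2 fold change between alcohol-exposed 3xTg-AD mice and WT controls was 2.12 (SE 0.30, adjusted p = 0.00085 in edgeR), and 1.83 (SE 0.28, adjusted p = 0.0028) without mouse 34. Bst2 (tetherin) holds budding virus particles at the cell surface. It was at 2.21, 1.45, 1.74 and 1.84 CPM in WT controls, at 2.40, 3.50, 3.19 and 2.84 CPM in alcohol-exposed WT mice, at 2.18, 5.11, 7.63 and 4.15 CPM in 3xTg-AD controls, and at 4.06, 9.44, 12.9 and 35.1 CPM in alcohol-exposed 3xTg-AD mice. Both alcohol groups lay wholly above the WT controls, while the 2 3xTg-AD groups overlapped. Its log2 fold change versus WT controls was 3.03 (SE 0.53, adjusted p = 0.0048 in edgeR), and 2.22 (SE 0.37, adjusted p = 0.0067) without mouse 34.

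Usp18 and Oasl2 were near the floor of the table in WT mice and higher in every 3xTg-AD mouse. Usp18 removes Isg15 from proteins and dampens the interferon receptor. Its UMIs were 0, 5, 0 and 0 in WT controls, 5, 0, 5 and 5 in alcohol-exposed WT mice, 11, 12, 21 and 13 in 3xTg-AD controls, and 9, 21, 26 and 159 in alcohol-exposed 3xTg-AD mice. As a level, no WT mouse exceeded 0.520 CPM and no 3xTg-AD mouse was under 0.530 CPM, so the genotypes did not overlap but nearly touched. Oasl2 belongs to the oligoadenylate synthetase-like proteins, which bind double-stranded RNA or its sensors. It was at 0.643, 0, 0.642 and 0 CPM in WT controls, at 0.495, 0.824, 0 and 0.650 CPM in alcohol-exposed WT mice, at 2.10, 1.79, 2.14 and 1.06 CPM in 3xTg-AD controls, and at 1.12, 4.69, 5.06 and 49.6 CPM in alcohol-exposed 3xTg-AD mice. All 8 3xTg-AD mice again lay above all 8 WT mice. Versus WT controls, alcohol-exposed 3xTg-AD mice had a log2 fold change in edgeR of 5.09 (SE 1.15, adjusted p = 0.020) for Usp18 and of 5.45 (SE 1.23, adjusted p = 0.025) for Oasl2. The size of these folds depends on the zeros of the table: with each listed 0 raised to 4 UMIs, the most it can hide with 1 UMI per nucleus, they were 3.42 (adjusted p = 0.031) and 4.87 (adjusted p = 0.020). Without mouse 34 the log2 fold change was 3.24 (SE 0.91, adjusted p = 0.074) for Usp18 and 3.37 (SE 0.78, adjusted p = 0.037) for Oasl2. Both genes passed the filter on low counts through the 3xTg-AD mice, where they are high. Their calls in all nuclei are therefore not independent of that filter.

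Of the 3 Ifit genes, whose proteins bind viral RNA and block its translation, Ifit3 rose in alcohol-exposed 3xTg-AD mice, and Ifit1 and Ifit2 did not pass the test. Ifit1 was at 2.57, 2.60, 3.67 and 3.09 CPM in WT controls, at 3.32, 2.37, 1.77 and 2.31 CPM in alcohol-exposed WT mice, at 3.47, 3.83, 3.60 and 4.07 CPM in 3xTg-AD controls, and at 2.41, 4.44, 4.82 and 66.9 CPM in alcohol-exposed 3xTg-AD mice. A single mouse stood above an otherwise narrow range, and mouse 34 gave 55.9% of all Ifit1 UMIs of the study. Its log2 fold change versus WT controls was 2.70 (SE 0.86, adjusted p = 0.093 in edgeR), and 0.35 (SE 0.24, adjusted p = 0.45) without that mouse. Ifit3 was at 3.50, 2.08, 3.21 and 2.57 CPM in WT controls, at 3.75, 4.02, 4.79 and 4.26 CPM in alcohol-exposed WT mice, at 2.58, 5.11, 6.0 and 3.58 CPM in 3xTg-AD controls, and at 4.12, 5.0, 9.40 and 29.5 CPM in alcohol-exposed 3xTg-AD mice. Both alcohol groups lay above all WT controls. Ifit3 rose by 2.04 on the log2 scale (SE 0.50, adjusted p = 0.031 in edgeR), and the value without mouse 34 was 1.08 (SE 0.30, adjusted p = 0.075). Ifit2 was at 3.57, 3.22, 3.58 and 4.04 CPM in WT controls, at 4.17, 3.61, 3.93 and 3.78 CPM in alcohol-exposed WT mice, at 2.42, 1.62, 2.57 and 3.25 CPM in 3xTg-AD controls, and at 2.59, 3.00, 3.21 and 6.12 CPM in alcohol-exposed 3xTg-AD mice. The 7 3xTg-AD mice other than mouse 34 were at 3.25 CPM or less, and 7 of the 8 WT mice lay above all of them. Its log2 fold change versus WT controls was 0.01 (SE 0.25, adjusted p = 0.99 in edgeR) and -0.33 (SE 0.20, adjusted p = 0.42) without mouse 34.

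Isg15 is a ubiquitin-like protein that is attached to other proteins during the interferon response, and Rnf213 is a very large ubiquitin ligase and ATPase that coats lipid droplets and intracellular bacteria. Isg15 was at 5.21, 6.03, 9.91 and 7.42 CPM in WT controls, at 7.0, 6.29, 4.5 and 5.56 CPM in alcohol-exposed WT mice, at 9.76, 10.9, 14.1 and 9.52 CPM in 3xTg-AD controls, and at 7.72, 9.25, 11 and 52.6 CPM in alcohol-exposed 3xTg-AD mice. Apart from mouse 34, the alcohol-exposed 3xTg-AD mice were inside or under the range of the unexposed 3xTg-AD controls. Rnf213 was at 2.57, 2.91, 3.12 and 2.65 CPM in WT controls, at 2.33, 3.19, 1.65 and 2.36 CPM in alcohol-exposed WT mice, at 4.28, 4.09, 3.43 and 4.88 CPM in 3xTg-AD controls, and at 3.00, 5.12, 4.34 and 16.3 CPM in alcohol-exposed 3xTg-AD mice. All 3xTg-AD controls lay above all 8 WT mice, and mouse 4 of the alcohol-exposed 3xTg-AD mice lay among the WT mice. Versus WT controls, the log2 fold change in alcohol-exposed 3xTg-AD mice was 1.49 for Isg15 (SE 0.49, adjusted p = 0.096 in edgeR) and 1.32 for Rnf213 (SE 0.40, adjusted p = 0.068). The values without mouse 34 were 0.37 (SE 0.19, adjusted p = 0.33) and 0.53 (SE 0.23, adjusted p = 0.23).

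Ifi27, a small hydrophobic protein of mitochondrial and nuclear membranes, had the smallest log2 fold change of the 6 genes that rose in alcohol-exposed 3xTg-AD mice. It was at 24.4, 22.4, 25.7 and 47.3 CPM in WT controls, at 36.7, 33.1, 39.9 and 27.4 CPM in alcohol-exposed WT mice, at 28.6, 50.8, 47.5 and 32.2 CPM in 3xTg-AD controls, and at 39.6, 62.9, 63.2 and 91.3 CPM in alcohol-exposed 3xTg-AD mice. WT control mouse 36 reached into the range of the 3xTg-AD mice, and 3 of the 4 alcohol-exposed 3xTg-AD mice lay above all other mice. The log2 fold change versus WT controls was 1.09 (SE 0.24, adjusted p = 0.016 in edgeR), and 0.86 (SE 0.22, adjusted p = 0.056) without mouse 34.

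**Figure D1:**
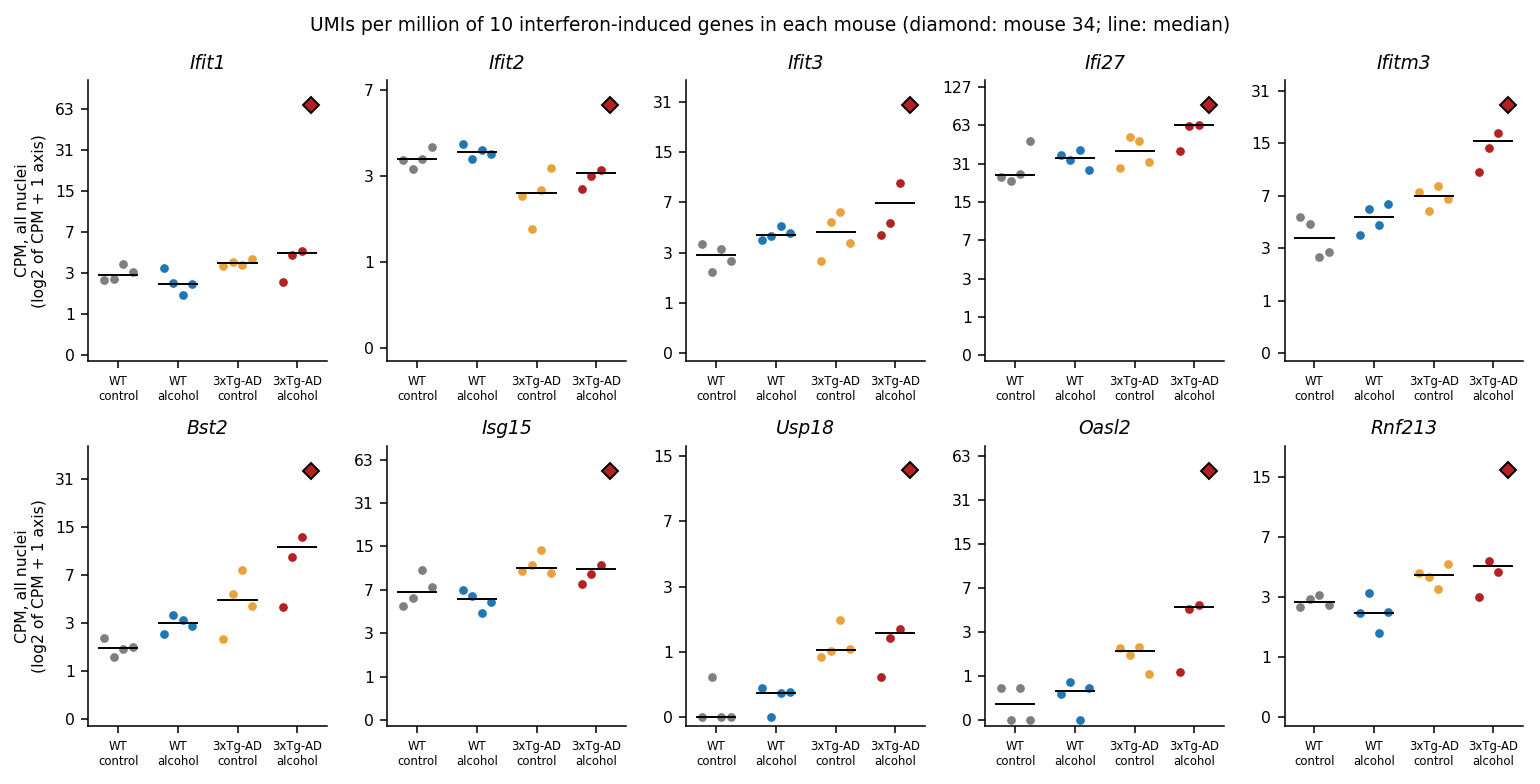
Level (CPM) in all nuclei for each of the 10 genes, on a log2 (CPM + 1) axis, with 1 point per mouse, 4 mice per group, the group median as a line and mouse 34 as a diamond. Mouse 34 is the highest point in all 10 panels, and Ifitm3 is the gene for which every alcohol-exposed 3xTg-AD mouse stands above all other mice.

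In alcohol-exposed 3xTg-AD mice against WT controls, 6 of the 10 genes were called higher at an adjusted p of at most 0.05 (Bst2, Ifi27, Ifit3, Ifitm3, Oasl2 and Usp18), against 1.56% of the 16767 genes tested, and none lower. Of these, Oasl2 and Usp18 passed the filter on low counts through the 3xTg-AD mice. Without mouse 34 the count was 3 (Bst2, Ifitm3 and Oasl2), against 0.781% of the genes tested. The median log2 fold change of the 10 genes was 2.08 with mouse 34 and 0.97 without it, beside 0.0035 over all genes tested. In CPM, 5 of the genes lay higher in every alcohol-exposed 3xTg-AD mouse than in every WT control (Ifit3, Ifitm3, Bst2, Usp18 and Oasl2), against 4.23% of all genes, and the same 5 did so without mouse 34, against 6.11%. Without mouse 34 Ifit2 lay lower in each of them than in every WT control, against 6.64% of all genes, and than in every alcohol-exposed WT mouse, against 8.36%. The count of 6 called genes was 2 without WT control 28, 3 without WT control 26 and 9 without mouse 4 of the exposed 3xTg-AD mice. It was also 2 without the 3 mice of highest Gm42418. The share of all genes called changes between fits too and is not set beside these counts. They show only how the calls depend on single mice.

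Genotype was compared over both treatments, 8 mice against 8. Of the 10 genes 6 were called higher in 3xTg-AD mice, against 1.51% of the genes tested, and none lower. These were Ifitm3 (log2 fold change 1.30, SE 0.21, adjusted p = 0.0019 in edgeR), Bst2 (1.86, SE 0.37, adjusted p = 0.0091), Usp18 (3.64, SE 0.79, adjusted p = 0.015), Oasl2 (3.70, SE 0.89, adjusted p = 0.037), Ifi27 (0.66, SE 0.17, adjusted p = 0.038) and Rnf213 (1.09, SE 0.29, adjusted p = 0.045). Without mouse 34 the count was again 6, against 1.19% of the genes tested, but with Isg15 (0.66, adjusted p = 0.013 in edgeR) in the place of Ifi27 (0.54, adjusted p = 0.072). Bst2, Ifitm3, Oasl2, Rnf213 and Usp18 were called in both. Of these, Oasl2 and Usp18 passed the filter on low counts through the 3xTg-AD mice, so their calls are not independent of it. The count of 6 was 3 when WT control 26, 27 or 28, exposed WT mouse 6, 7 or 18, or 3xTg-AD control 13 or 14 was left out, and 1 without the 3 mice of highest Gm42418. For these fits the share of all genes called is not set beside the count. Ifit2 was the only one of the 10 with a negative value, -0.48 without mouse 34 (adjusted p = 0.083 in edgeR).

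Alcohol was compared within each genotype. In alcohol-exposed 3xTg-AD mice against 3xTg-AD controls no member was called in edgeR, although 8 had an unadjusted p under 0.05 with mouse 34 and 3 without it, and DESeq2 called 2, against 0.59% of the genes tested. The share of all genes under that unadjusted p was not counted. In edgeR 2 were called without mouse 4, and 1 without mouse 12, 26 or 28. Of all genes tested, 0.0596% were called higher in that comparison with all mice, and 0 of 17031 without mouse 34. For the fits without mouse 4, 12, 26 or 28 the share is not given. Ifitm3 came nearest, at 1.28 on the log2 scale (SE 0.28, adjusted p = 0.052 in edgeR), and was the only member whose 4 exposed 3xTg-AD mice all lay above the 4 controls, as did 2.46% of all genes. In alcohol-exposed WT mice against WT controls no member was called by edgeR or DESeq2, and none had an unadjusted p under 0.05, beside 0.00596% of all genes called higher. Ifit3 and Bst2 lay higher in every exposed WT mouse than in every WT control, against 6.61% of all genes. Averaged over both genotypes, alcohol raised Ifitm3 (log2 fold change 0.82, SE 0.21, adjusted p = 0.043 in edgeR), 1 of the 10 genes against 0.996% of the genes tested, and the call was lost when exposed WT mouse 7, 17 or 18, 3xTg-AD control 13 or 21, WT control 28 or 36, or exposed 3xTg-AD mouse 33 or 34 was left out. The interaction of genotype and alcohol was called for 0 of 10 genes by edgeR and by DESeq2 (2, Ifit1 and Ifitm3, had an unadjusted p under 0.05 in edgeR), so a difference in the response to alcohol between the genotypes was not shown for any of them. Of all 16767 genes tested, edgeR called 0 and DESeq2 called 1 for the interaction, so the count says little about the members.

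The comparisons share groups of mice, so their values stand side by side and are not independent. Between unexposed 3xTg-AD controls and WT controls, edgeR and DESeq2 called no member, beside 0.119% of all genes called higher in edgeR. In edgeR 4 members had an unadjusted p under 0.05 (Ifitm3, Bst2 and Usp18 toward higher levels and Ifit2 toward lower ones), and 7 did without mouse 34. Mouse 34 is in neither group of this comparison. Without it the fold changes stayed nearly as they were (1.32 for Bst2 in both fits), while the spread shared by all groups fell (SE 0.54 to 0.37 for Bst2). The share of all genes under that p was not counted. In CPM, Ifitm3, Usp18, Oasl2 and Rnf213 lay higher in all 3xTg-AD controls than in all WT controls, against 1.53% of all genes. Between the exposed groups, 3xTg-AD mice had higher Bst2 (log2 fold change 2.39, adjusted p = 0.026 in edgeR) and Ifitm3 (1.75, adjusted p = 0.0054) than WT mice, 2 of 10 genes against 0.459% of the genes tested. DESeq2 called 7 of the 10 in this comparison, against 1.29% of the genes tested. Ifitm3 remained called without mouse 34 (1.47, adjusted p = 0.020 in edgeR), against 0.223% of the genes tested. The edgeR count was 1 without any single one of the 4 exposed WT mice or mouse 34, and 8 without mouse 4. Except for mouse 34, the share of all genes called in these fits is not set beside the count.

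**Figure D2:**
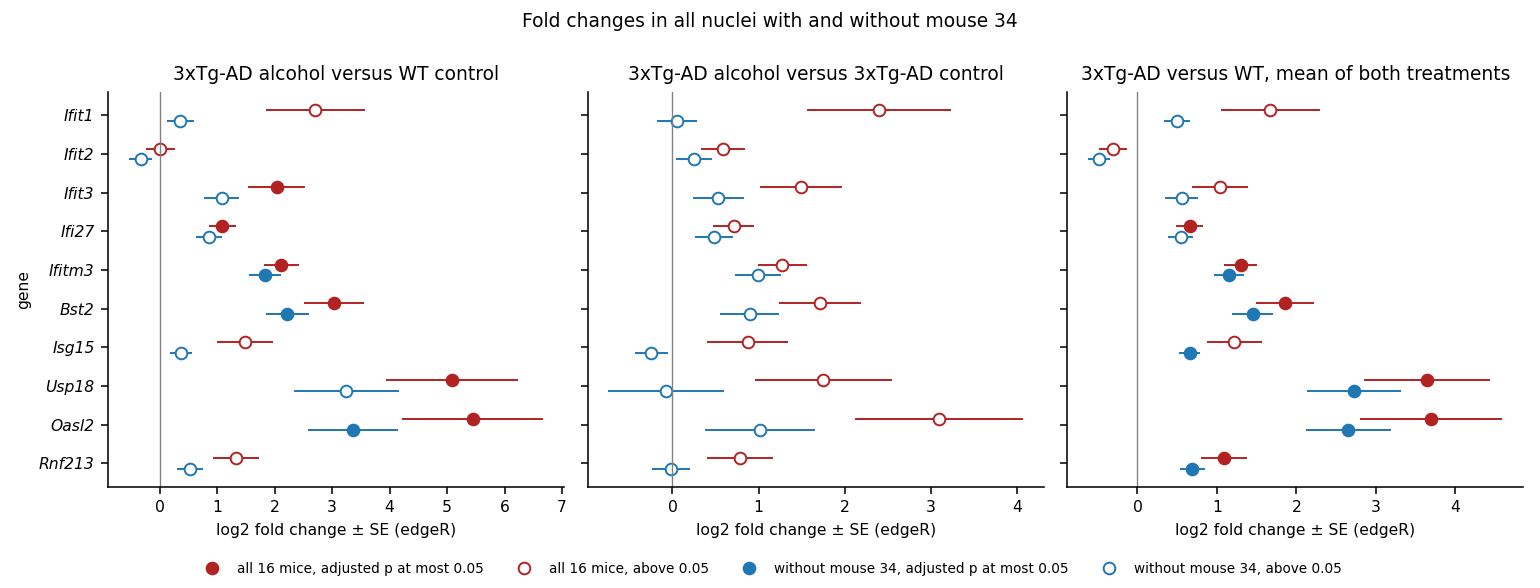
Log2 fold changes of the 10 genes in all nuclei with SEs from edgeR, in 3 comparisons, for all 16 mice (red) and without mouse 34 (blue), filled where the adjusted p was at most 0.05. Leaving out mouse 34 moves Ifit1 from 2.70 to 0.35 in the first panel but Ifitm3 only from 2.12 to 1.83.

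Cell classes were set by marker genes in each nucleus, and a class is named after the markers it was chosen by. Of 114512 nuclei, 60622 were given a class: 41868 glutamatergic-like, 5027 GABAergic-like, 6345 astrocyte-like, 3268 oligodendrocyte-like, 1466 oligodendrocyte precursor (OPC)-like, 1851 microglia-like and 371 endothelial-like nuclei, beside small classes that were not tested. Endothelial-like nuclei had the highest level of 8 of the 10 genes among all classes over the 15 mice other than mouse 34. The order is uncertain for genes with few UMIs or near ties. Over all 16 mice, endothelial-like nuclei held 11 UMIs of Usp18 and 19 of Rnf213. In these mice Ifitm3 stood at 376 CPM in endothelial-like nuclei, between 3.5 and 16.0 CPM in the other 6 tested classes, and at 135 and 74.4 CPM in the small untested mural-like and VLMC-like (vascular and leptomeningeal) classes, on 30 and 33 UMIs. Those 2 classes also held astrocyte markers, with a mean of 5.43 astrocyte and 6.86 mural marker UMIs per mural-like nucleus, and 9.29 astrocyte and 5.49 VLMC marker UMIs per VLMC-like nucleus. Their part in these levels was not tested. Ifit1 stood at 61.1 CPM in endothelial-like nuclei, between 2.4 and 6.2 CPM in the other 6 tested classes, and at 13.5 and 24.8 CPM in the mural-like and VLMC-like classes, on 3 and 11 UMIs. Within single mice, the endothelial-like nuclei were above the glutamatergic-like nuclei in 16 of 16 mice for Ifit1, Ifi27, Ifitm3 and Bst2, in 15 for Isg15, in 14 for Ifit3, in 11 for Rnf213, in 9 for Usp18, in 8 for Oasl2 and in 4 for Ifit2. Astrocyte-like nuclei were above glutamatergic-like nuclei in 16 of 16 mice for Ifit3, Ifi27 and Rnf213, and in 4 of 16 for Isg15. In the 8 WT mice Ifitm3 stood at 210 CPM in endothelial-like nuclei, at most at 7.8 CPM in the other 6 tested classes, and at 96.2 and 62.5 CPM in the mural-like and VLMC-like classes. Ifit1 stood at 58 CPM, at most at 3.8 CPM, and at 20.6 and 18.4 CPM in the same order. Rnf213 stood at 29.8 CPM in endothelial-like and 29.3 CPM in VLMC-like nuclei of the 15 mice. It was at 24.7 CPM in microglia-like, 19.7 CPM in astrocyte-like, 13.5 CPM in mural-like and 12.9 CPM in OPC-like nuclei, and at 2.4 CPM in oligodendrocyte-like and 1.6 CPM in glutamatergic-like nuclei.

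**Figure D3:**
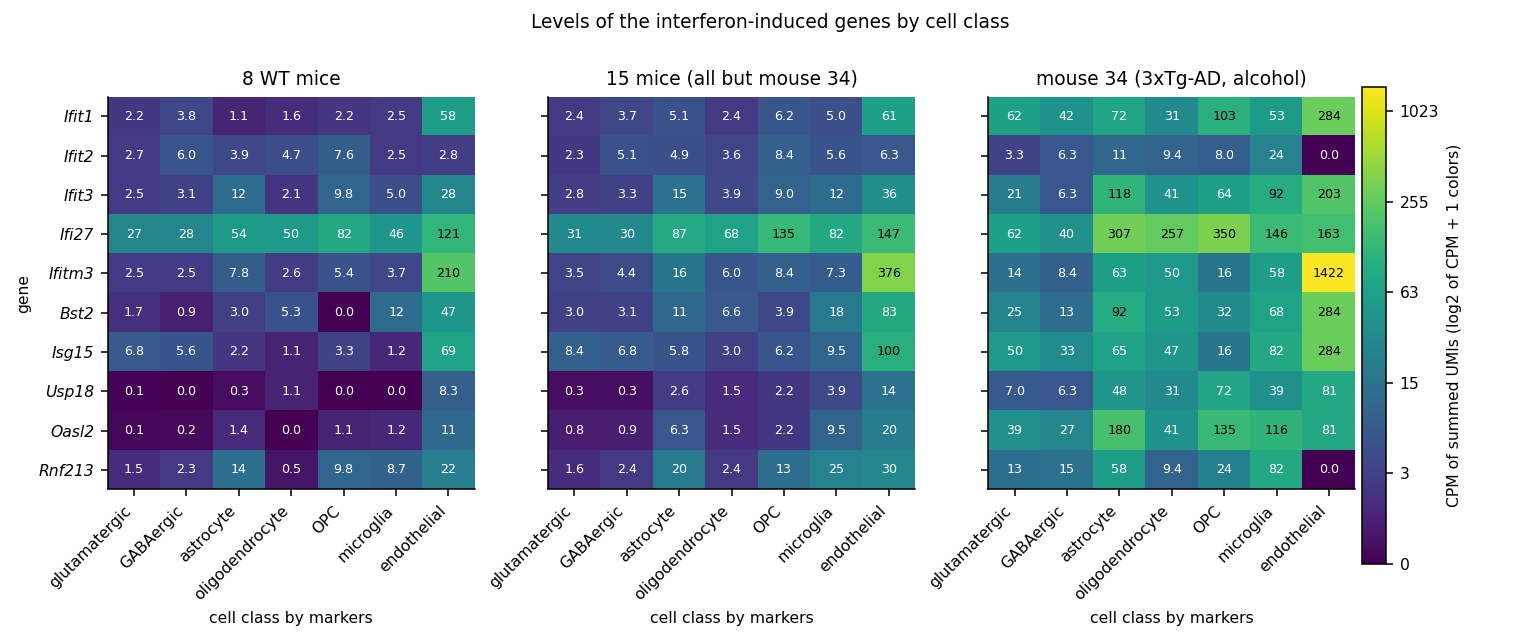
Level of each gene by cell class as CPM of the summed UMIs (colors on a log2 scale of CPM + 1), in the 8 WT mice, in the 15 mice other than mouse 34, and in mouse 34. Ifitm3 is bright in endothelial-like nuclei in all 3 panels, at 210, 376 and 1422 CPM, and Ifit1 is at 2.2 CPM in glutamatergic-like nuclei of WT mice and at 62 CPM in those of mouse 34.

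Only abundant classes and genes could be tested between groups: 17 of the 70 pairs of member and class passed the filter on low counts, 8 of them in glutamatergic-like nuclei (all but Usp18 and Oasl2). In that class Bst2 was at 1.47, 1.35, 1.28 and 0.592 CPM in WT controls, at 1.48, 1.63, 2.47 and 2.76 CPM in alcohol-exposed WT mice, at 0.856, 3.4, 5.24 and 2.83 CPM in 3xTg-AD controls, and at 2.28, 6.22, 9.46 and 25.1 CPM in alcohol-exposed 3xTg-AD mice. All 4 of the last group lay above the WT controls. Its log2 fold change versus WT controls was 3.22 (SE 0.68, adjusted p = 0.021 in edgeR), and 2.36 (SE 0.52, adjusted p = 0.036) without mouse 34. Most WT mice lay near or under the limit of the filter on low counts for Bst2 in this class. It passed that filter mainly through the 3xTg-AD mice, so its calls here are not independent of it. Ifitm3 was at 3.35, 1.62, 0.916 and 1.63 CPM in glutamatergic-like nuclei of WT controls, at 2.64, 2.79, 3.20 and 3.41 CPM in those of alcohol-exposed WT mice, at 2.4, 3.57, 5.76 and 2.83 CPM in those of 3xTg-AD controls, and at 3.16, 6.63, 7.41 and 13.7 CPM in those of alcohol-exposed 3xTg-AD mice. The first and last of these groups overlapped at 1 mouse each, and the log2 fold change between them was 2.02 (SE 0.43, adjusted p = 0.017 in edgeR), or 1.58 (SE 0.40, adjusted p = 0.060) without mouse 34. In this comparison 0.76% of the genes tested in the class were called higher, and 0.355% without mouse 34. Over both treatments Ifitm3 (1.15, adjusted p = 0.048 in edgeR) and Bst2 (1.87, adjusted p = 0.049) were also called higher in the glutamatergic-like nuclei of 3xTg-AD mice, against 1.08% of the genes tested. Without mouse 34 Bst2 stayed called (1.44, adjusted p = 0.038 in edgeR) and Ifitm3 did not (0.93, adjusted p = 0.087), against 0.831% of the genes tested. Ifitm3 had its highest level in endothelial-like nuclei, which held 15.3% of its UMIs, against 22.2% in glutamatergic-like nuclei. Its level in endothelial-like nuclei rested on 13 to 42 nuclei per mouse. There it was at 120, 248, 456 and 186 CPM in WT controls, at 125, 390, 148 and 275 CPM in alcohol-exposed WT mice, at 1183, 204, 508 and 305 CPM in 3xTg-AD controls, and at 509, 686, 662 and 1422 CPM in alcohol-exposed 3xTg-AD mice. The last group lay above all 8 WT mice, and 1 of the 3xTg-AD controls lay among it. The log2 fold change versus WT controls was 1.79 (SE 0.54, adjusted p = 0.12 in edgeR). Over all classes, 3 of the 17 pairs tested were called versus WT controls, against 0.427% of all pairs of gene and class. Of these, Bst2 in glutamatergic-like nuclei and Ifi27 in OPC-like nuclei passed the filter on low counts mainly through the 3xTg-AD mice. The count was 1 of 19 without WT control 28 (against 0.335%), 7 of 18 without mouse 4 (against 0.363%) and 18 of 70 without the filter on low counts (against 0.289%).

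Ifi27 was the member that could be tested in most classes. In astrocyte-like nuclei it was at 40.4, 39.8, 54.0 and 55.7 CPM in WT controls, at 65.5, 63, 60.5 and 45.2 CPM in alcohol-exposed WT mice, at 61.9, 107, 123 and 64.6 CPM in 3xTg-AD controls, and at 73.5, 161, 147 and 307 CPM in alcohol-exposed 3xTg-AD mice. Each alcohol-exposed 3xTg-AD mouse lay above all 8 WT mice. The log2 fold change versus WT controls was 1.82 (SE 0.41, adjusted p = 0.070 in edgeR) with all mice and 1.41 (SE 0.24, adjusted p = 0.00013) without mouse 34, so the smaller difference was the called one, at 0.244% of the genes tested. Over both treatments the genotype difference without mouse 34 was 1.03 (SE 0.17, adjusted p = 3.3e-05 in edgeR), and 1.23 (SE 0.29, adjusted p = 0.10) with it, against 0.299% of the genes tested. In OPC-like nuclei Ifi27 was at 83.3, 53.3, 92.1 and 65.9 CPM in WT controls, at 17.6, 64.3, 144 and 80.9 CPM in alcohol-exposed WT mice, at 75.7, 190, 274 and 128 CPM in 3xTg-AD controls, and at 146, 250, 203 and 350 CPM in alcohol-exposed 3xTg-AD mice. The last group again lay above all 8 WT mice, though these levels rest on 2 to 52 UMIs per mouse. Ifi27 rose in OPC-like nuclei of alcohol-exposed 3xTg-AD mice against WT controls (log2 fold change 1.62, SE 0.35, adjusted p = 0.012 in edgeR, and 1.39, adjusted p = 0.031, without mouse 34), where 0.209% of the genes tested were called higher with all mice and 0.14% without mouse 34. The genotype difference over both treatments was 1.30 (SE 0.26, adjusted p = 0.0035 in edgeR), again with 0.209% called. In this class most WT mice lay near or under the limit of the filter on low counts for Ifi27. It passed mainly through the 3xTg-AD mice, so these calls are not independent of that filter.

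Microglia-like nuclei had Ifi27 at 12.1, 53.2, 0 and 83.6 CPM in WT controls, at 29.6, 22.7, 66.5 and 46.2 CPM in alcohol-exposed WT mice, at 35.2, 131, 133 and 53.0 CPM in 3xTg-AD controls, and at 146, 140, 104 and 146 CPM in alcohol-exposed 3xTg-AD mice. These levels rest on 0 to 30 UMIs per mouse. The exposed 3xTg-AD mice, mouse 34 included, formed a narrow band above all WT mice. The log2 fold change versus WT controls was 1.59 (SE 0.46, adjusted p = 0.16 in edgeR), which was not called. The test versus alcohol-exposed WT mice gave 1.54 (SE 0.38, adjusted p = 0.028 in edgeR), with 0.623% of the genes tested called higher, and 1.48 (SE 0.42, adjusted p = 0.15) without mouse 34. In this class too, Ifi27 passed the filter on low counts mainly through the 3xTg-AD mice, so the call is not independent of it. In oligodendrocyte-like nuclei the log2 fold change of Ifi27 versus WT controls was 1.60 (SE 0.39, adjusted p = 0.12 in edgeR), and in glutamatergic-like nuclei it was 0.83 (SE 0.26, adjusted p = 0.10), neither of them called. In GABAergic-like nuclei the range over all mice was 14.6 to 42.0 CPM, and the log2 fold change versus WT controls was 0.31 (SE 0.25, adjusted p = 0.69 in edgeR). Ifi27 was higher in astrocyte-like than in glutamatergic-like nuclei in 16 of 16 mice, and in OPC-like and oligodendrocyte-like nuclei in 15 of 16 each. A difference in the fold change between classes was not tested.

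**Figure D4:**
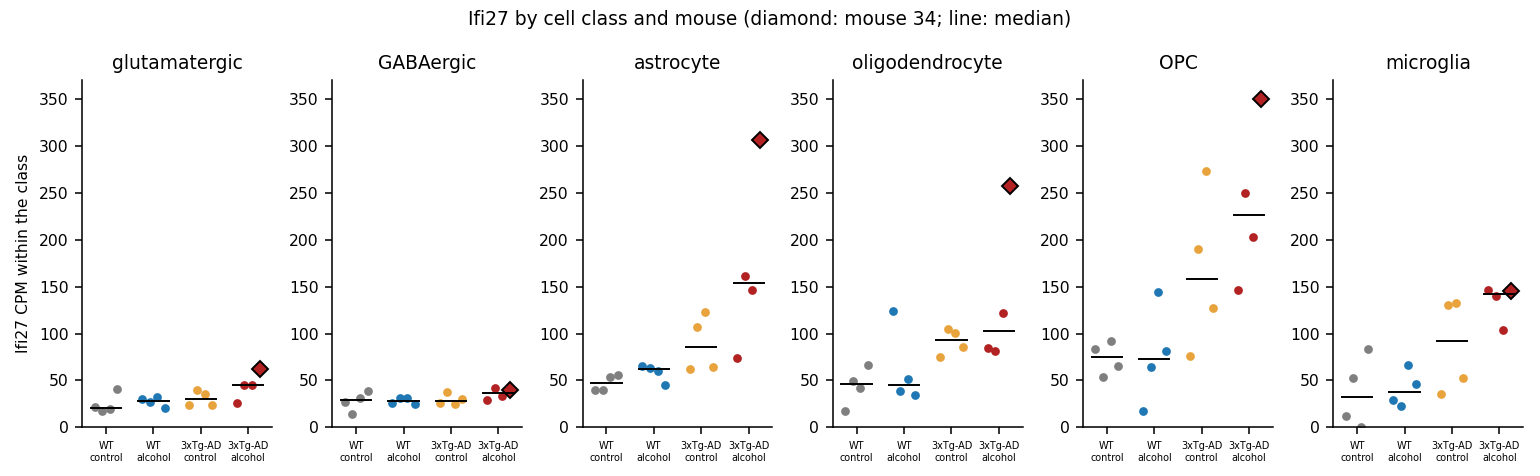
Ifi27 level (CPM within the class) in 6 cell classes, with 1 point per mouse, 4 mice per group, the median as a line and mouse 34 as a diamond. In astrocyte-like, OPC-like and microglia-like nuclei all 4 alcohol-exposed 3xTg-AD mice stand above the 8 WT mice, while the groups overlap in GABAergic-like nuclei.

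Mouse 34 was the highest of the 16 mice for 10 of 10 genes, as it was for 6.04% of all genes tested. It was at least 2-fold above every other mouse for 7 of them (Bst2, Ifit1, Ifit3, Isg15, Oasl2, Rnf213 and Usp18), against 0.233% of all genes. Ifitm3, Ifi27 and Ifit2 were the members in which it stood closest to the other mice. The excess was unequal between genes in each class. In glutamatergic-like nuclei the level in mouse 34 relative to the other 3 mice of its group was 28.8-fold for Ifit1 and 21.8-fold for Oasl2, but 2.46-fold for Ifitm3 and 1.61-fold for Ifi27. In astrocyte-like nuclei it was 14.7-fold for Oasl2, 7.25-fold for Ifit1 and 2.34-fold for Ifi27. These ratios have no replicate in mouse 34 and describe that library.

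The UMIs of mouse 34 were spread over many nuclei and over every tested class. UMIs of at least 3 of the 10 genes were present in 321 of its 4955 nuclei (6.48%), while the other mice had between 0.0153% and 0.472%. Mice 31 and 33, also alcohol-exposed 3xTg-AD mice, came next with 34 nuclei (0.472%) and 41 nuclei (0.451%). By class, the share in mouse 34 was 98 of 1822 glutamatergic-like nuclei (5.38%, against 0.0300% in the other 15 mice), 59 of 361 astrocyte-like nuclei (16.3%, against 0.602%) and 7 of 13 endothelial-like nuclei (53.8%, against 10.1%). Ifit1 was seen in 456 nuclei of mouse 34 with 831 UMIs, of which 285 nuclei had 1 UMI, 26 had at least 5, and the 10 highest nuclei held 12%. Mouse 34 also had the deepest nuclei (a median of 2175 UMIs, against 1313 at the lowest). Of its 4955 nuclei, 4002 held at least 1000 UMIs, and with these thinned to 1000 UMIs each, Ifit1 was present in 5.16% of them, against 0.13% to 0.52% of such nuclei in the other mice. Oasl2 was present in 4.84% of the thinned nuclei against at most 0.48%.

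**Figure D5:**
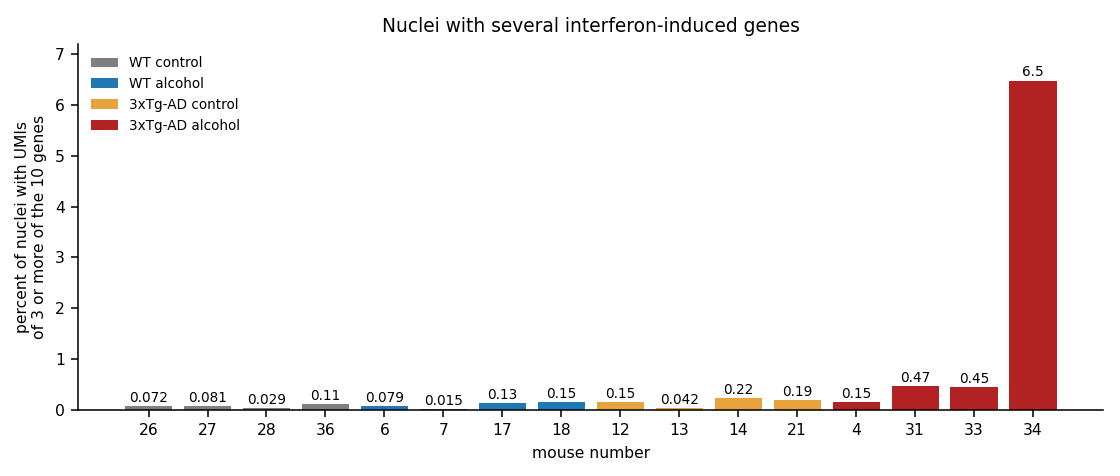
Percent of the nuclei of each mouse with UMIs of at least 3 of the 10 genes, as 1 bar per mouse colored by group, on an axis from 0. The bar of mouse 34 reaches 6.48%, and the next highest are mice 31 and 33 of the same group, at 0.472% and 0.451%.

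Within the glutamatergic-like nuclei of mouse 34, Ifit1 ranged from none to 162 CPM between nuclei with markers of different projection types. Nuclei with markers of superficial intratelencephalic neurons held 38 UMIs in 58 nuclei (162 CPM), and those with layer 6 corticothalamic markers held 24 UMIs in 139 nuclei (48.2 CPM). In 32 nuclei with Rorb-type intratelencephalic markers and 32 with near-projecting markers no UMI was seen, which allows up to 21.4 and 43.4 CPM. These values come from 1 mouse and few nuclei, and the limits cover counting error only. Since all cell types can respond to interferon, no class served as a background for free RNA in the droplets, and its part in these levels was not tested.

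Markers of other cells also differed in mouse 34. The summed level of 5 genes of monocytes and neutrophils (S100a8, S100a9, Ccr2, Ly6c2 and Plac8, 5 of 5 above 0) was 38.6 CPM in mouse 34, against 0.50 to 10.8 CPM in WT controls, 0 to 18.1 CPM in alcohol-exposed WT mice, 0.43 to 9.20 CPM in 3xTg-AD controls and 6.37 to 14.1 CPM in the other alcohol-exposed 3xTg-AD mice. Most of this sum was S100a9 (21.3 CPM) and S100a8 (13.9 CPM), which reached at most 10.5 and 7.03 CPM in other mice. Plac8 was at 1.85 CPM and Ly6c2 at 0.725 CPM in mouse 34, against at most 0.625 and 0.295 CPM elsewhere, while Ccr2, at 0.805 CPM, lay within the range of the other mice (0 to 0.919 CPM). The oligodendrocyte list was also highest in mouse 34 (771 CPM, against 257 to 755 CPM in the other mice), and the GABAergic list was lowest (290 CPM). Their part in the levels of the 10 genes was not tested.

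The interferon pathway around the 10 genes was read from lists of its other parts. No interferon ligand gene, of 20 listed, is a row of the table. Of 18 receptor and signaling genes 17 were tested, and in alcohol-exposed 3xTg-AD mice against WT controls 1 rose and 1 fell, with a median log2 fold change of 0.18 (0.0035 over all genes tested, of which 1.56% were called higher and 2.5% lower). Irf7, the transcription factor that amplifies type I interferon, rose (1.91, SE 0.52, adjusted p = 0.048 in edgeR), and the kinase gene Jak2 fell (-0.55, SE 0.15, adjusted p = 0.046). Without mouse 34 no gene of this list was called (Irf7 0.80, adjusted p = 0.17 in edgeR, and Jak2 -0.51, adjusted p = 0.11), and the median was 0.095. The receptor genes were even across mice, at 30.4 to 39.3 CPM for Ifnar1 and 11.5 to 18.2 CPM for Ifnar2. Stat2, a transcription factor of the pathway, was highest in mouse 34, at 63.1 CPM (at most 36.6 CPM in the others). Of 11 nucleic acid sensing genes tested, 2 rose, the single-stranded RNA receptor Tlr7 (1.5, adjusted p = 0.015 in edgeR) and the adaptor Mavs (0.83, adjusted p = 0.044), and the median was 0.58. Without mouse 34 Tlr7 was called (1.35, adjusted p = 0.049 in edgeR) and Mavs was not (0.80, adjusted p = 0.095).

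Other interferon-induced effectors were also higher in this comparison. Of 60 tested, 16 rose and none fell in alcohol-exposed 3xTg-AD mice against WT controls, with a median log2 fold change of 1.11, beside 1.56% of all genes tested called higher and their median of 0.0035. Without mouse 34, 7 were called, beside 0.781% of all genes tested, and the median was 0.81. In edgeR, those with the smallest adjusted p among genes with UMIs in WT controls were Ifi27l2a (4.03, adjusted p = 0.0047), a relative of Ifi27, the DNA deaminase gene Apobec3 (1.69, adjusted p = 0.0048), Nmi (1.39, adjusted p = 0.0090) and the secreted lectin-binding protein gene Lgals3bp (1.94, adjusted p = 0.0093). Trim30a, Rtp4, Rsad2, Ifi204, Ddx60, Trim30d, Gbp3, Samd9l and Slfn8 were also called. The chemokine genes Ccl5 and Cxcl10 and the GTPase gene Iigp1 were listed at 0 in all WT controls, and were at 0.56 to 3.70 CPM, 0.31 to 7.89 CPM and 0.71 to 9.26 CPM in alcohol-exposed 3xTg-AD mice. They passed the filter on low counts through mice of other groups than the WT controls, so their calls are not independent of it. The same can hold for other called effectors with few UMIs in WT controls. The 7 that were called without mouse 34 were Nmi, Trim30a, Ccl5, Lgals3bp, Ifi27l2a, Apobec3 and Rtp4. Within the cell classes and with all mice, Ifi27l2a in glutamatergic-like nuclei was the only gene of these lists called in that comparison (3.32, adjusted p = 0.023 in edgeR). Without mouse 34 it was not called, and Lgals3bp in astrocyte-like nuclei was (1.89, adjusted p = 0.0052 in edgeR).

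The genes whose level over the mice was most like that of each called member were found by Pearson r of log2 (CPM + 1) over 16 mice. The points of a mouse share its library and depth. For Bst2 the nearest were Lgals3bp (0.96), the immunoproteasome gene Psmb8 (0.96) and Ifi27l2a (0.96), at 0.93, 0.92 and 0.93 without mouse 34. For Ifi27 they were the complement gene C4b (0.92), Lgals3bp (0.90) and Bst2 (0.88), at 0.88, 0.84 and 0.82 without it. For Ifitm3 they were the hexokinase gene Hk2 (0.93), Ifi27l2a (0.92) and Nmi (0.91), at 0.90, 0.87 and 0.86 without it. For Usp18, Gbp3 (0.94), Ddx58 (0.93) and Oasl2 (0.93) came to 0.80, 0.75 and 0.76. For Ifit3, Bst2 (0.94), Ddx60 (0.93) and H2-D1 (0.92) came to 0.90, 0.73 and 0.82. The nearest to Oasl2 were Ddx60, Rtp4 and Tap1 (0.96, 0.95 and 0.95), at 0.85, 0.84 and 0.82 without mouse 34. The nearest to Rnf213 were A930037H05Rik, Irf7 and Oasl2 (0.95, 0.94 and 0.94), at 0.81, 0.80 and 0.79 without it.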

How the data were processed

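Single-nucleus libraries (10x Genomics) of 16 mice were aligned by the authors to mm10 with Cell Ranger 6.1.1, and the deposited values are UMI counts per gene and nucleus, 216742276 in all, without normalization. The limits of the filter on nuclei are not given in the sources used here. Counts were summed per mouse over all nuclei or over a class and tested with the quasi-likelihood test of edgeR 4.0.16 (TMM, filterByExpr, robust) in R 4.3.3, over 8 contrasts, with Benjamini-Hochberg adjustment over all genes tested. DESeq2 1.42.0 was an alternative. CPM is a plain share of the total. The tests were checked on simulated data.

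A nucleus took a class with at least 3 UMIs of at least 2 of its markers at 5 times their overall share and 2 times any other class (1 time and no other class for glutamatergic), limits set after the marker counts were seen. No doublet caller was run, and a classed nucleus may also hold markers of other classes. Between 3 and 27 barcodes were shared per pair of libraries, and no library repeated another.

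The members and lists were chosen with earlier results of these data known. All members are named, of the other lists the genes called in alcohol-exposed 3xTg-AD mice against WT controls, and the 3 genes most like each called member; other genes were named after their values were seen. Alternatives covered normalization, filters, depth, class rule, Gm42418 and each mouse left out. The other lists and the counts of groups without overlap were recomputed without mouse 34, which was added after seeing the data.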

Additional observations from a re-analysis of the deposited data

Results flagged for a closer look

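A mouse far from the other 3 of its group, by Dixon's test at the 95% level, was found in 7 of the 40 sets of 4 mice (10 genes in 4 groups), and chance alone flags about 1 in 20 where all values are measured. In alcohol-exposed 3xTg-AD mice, 5 of the 7 were mouse 34. It was at 66.9 CPM for Ifit1 (2.41 to 4.82 CPM in the other 3), at 52.6 CPM for Isg15 (7.72 to 11 CPM), at 12.8 CPM for Usp18 (0.530 to 1.55 CPM), at 49.6 CPM for Oasl2 (1.12 to 5.06 CPM) and at 16.3 CPM for Rnf213 (3.00 to 5.12 CPM). Among WT controls, mouse 36 was at 47.3 CPM for Ifi27, against 22.4 to 25.7 CPM in the other 3. Mouse 27 was at 0.520 CPM for Usp18, while the others were listed at 0. Since a gene seen in fewer than 5 nuclei of a mouse is listed at 0, a single mouse above that limit is always far from the rest, and the chance rate does not apply to this set. Causes were not tested.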

How the results depend on the processing

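Ifitm3 and Bst2 were called in alcohol-exposed 3xTg-AD mice against WT controls under 25 of 25 alternatives, Ifi27 under 21, Oasl2 under 18 and Ifit3 under 15 of 25, and Usp18 under 19 of 24. For genotype over both treatments, Ifitm3 was called under 24 of 24 alternatives and Bst2 and Usp18 under 23. Ifi27 was called under 10 of 24, Rnf213 under 9 and Oasl2 under 8. Values of single members were tallied in all nuclei for exposed 3xTg-AD mice versus WT controls and versus 3xTg-AD controls, and for genotype. Elsewhere and in the classes only called members entered the tally. Of these values, 310 kept direction and call under the alternatives other than leaving out 1 mouse, 36 lost a call, 16 gained one and none changed sign. With 1 mouse left out, 575 of the tallied values kept both, 106 lost a call, 17 gained one and 6 changed sign. Outside the tally, leaving out mouse 34 also changed signs in all nuclei. For alcohol over both genotypes Ifit1 went from 1.03 to -0.14, Isg15 from 0.27 to -0.29 and Rnf213 from 0.24 to -0.16. For the interaction Usp18 went from 0.62 to -1.18. Leaving out mouse 34 turned the log2 fold change versus 3xTg-AD controls to -0.24 for Isg15, -0.072 for Usp18 and -0.015 for Rnf213 (highest without mouse 4, at 1.15, 2.13 and 1.04), and that of Ifit2 versus WT controls ranged from -0.33 to 0.15 as single mice were left out. No paired analysis was possible because the mouse numbers differ between the groups. The causes of these and the following changes were not tested, except that without a filter more genes enter the test.

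Members called in all nuclei versus WT controls (6) were 2 without the 3 mice of highest Gm42418, 2 with Gm42418 as a covariate, 3 in a fit of the 2 groups alone and 2 to 9 with 1 mouse left out. Versus 3xTg-AD controls (0) they were 2 in DESeq2, 1 without a filter on low counts, without those 3 mice, with the covariate, in the fit of 2 groups or with zeros raised to 4 UMIs, and 0 to 2 with 1 mouse left out. Versus exposed WT mice (2) they were 7 in DESeq2, 1 without those 3 mice or in the fit of 2 groups, 4 with zeros raised, and 1 to 8 with 1 mouse left out. For genotype (6) they were 1 without those 3 mice, 3 with the covariate and 3 to 7 with 1 mouse left out, and for alcohol over both genotypes (1) they were 3 in DESeq2, 0 in nuclei given a class and 0 to 2 with 1 mouse left out. The share of all genes called changes between fits too and is not set beside these counts.

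Members called in cell classes versus WT controls (3) were 18 without a filter (70 pairs of member and class tested in place of 17), 1 with the covariate and 1 to 7 with 1 mouse left out. Without a filter 0.289% of all pairs of gene and class were called higher. Versus 3xTg-AD controls (0) they were 2 without a filter (0.0268% of all pairs) and 0 to 1 with 1 mouse left out. Versus exposed WT mice (2) they were 4 in DESeq2, 14 without a filter (0.185%), 1 with the covariate and 0 to 4 with 1 mouse left out. For genotype (3) they were 5 in DESeq2, 15 without a filter (0.327%), 5 under a stricter class rule and 1 to 7 with 1 mouse left out, and for alcohol (0) they were 1 in DESeq2 and 1 without a filter (0.164%). Where no percentage stands beside a count, the share over all pairs is not given. The mean Ifi27 level in GABAergic-like nuclei was 37.4 CPM under the stricter rule. Other interferon genes called higher versus WT controls and for genotype, without the 3 mice of highest Gm42418, were 0 and 0 receptor and signaling genes, 1 and 1 sensing genes, and 9 and 8 effectors. Without mouse 34 they were 0 and 1, 1 and 1, and 7 and 8, against 1 and 1, 2 and 3, and 16 and 14 with all mice. Usp18 and Oasl2 passed the filter on low counts in no cell class, and without it they were called versus WT controls in 1 and 3 classes.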

Other observations

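The 39 genes that were at least 2-fold higher in mouse 34 than in every other mouse, described after their values were seen, included 7 of the 10 members, 19 other interferon-induced effectors, the signaling gene Irf7 and the sensing gene Ifih1. Another 10 were on none of the lists and included the chemokine gene Ccl12, the peptide transporter gene Tap1, the neutrophil gene S100a9 and the matrix gene Ccn2.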
